A study of Mus musculus with 479 samples.

Results

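The nuclear genes of the mitochondrial respiratory chain were followed in heart, kidney, liver and lung of mice with a Dchs1 or a Fat4 allele targeted, and of their wild-type controls. They were taken by symbol, as the protein-coding gene rows that begin with Nduf, Uqcr, Cox4, Cox5, Cox6, Cox7 or Cox8, with Sdha, Sdhb, Sdhc, Sdhd, Cyc1 and Cycs added. This gave 78 of the 24475 gene rows of each table. Among them were 7 core subunits, 29 accessory subunits and 8 assembly factors of complex I, 4 subunits of complex II, 9 of complex III, 20 genes placed with complex IV, and Cycs, which encodes somatic cytochrome c. Ndufa4, Ndufa4l2 and Cox7a2l were placed with complex IV, where their products are known to act. The row Ndufs5-ps met the symbol rule and was left out because it is not annotated as protein-coding, and Ndufb1, Ndufb4b and Ndufb4c were not analysed here.

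Complexes I and II pass electrons from NADH and succinate to ubiquinone, complex III passes them on to cytochrome c, and complex IV reduces oxygen to water. Complexes I, III and IV pump protons as they do so, and the gradient drives ATP synthase. The core subunits of complex I that carry its iron-sulfur clusters are nuclear, while its membrane-embedded core, cytochrome b and the catalytic core of complex IV are encoded by mitochondrial DNA. Heart muscle and the proximal tubule of the kidney are known for their density of mitochondria. Several complex IV subunits exist as pairs of genes, with one form used in heart and skeletal muscle and the other in most other tissues.

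Messenger RNA came from 479 libraries in 16 groups. The tested mice were Dchs1+/- or Fat4+/- heterozygotes (Het), made by targeting with VelociGene technology, and each line was set against its own wild-type littermates (WT). All were on a C57BL/6NTac background. Dchs1 and Fat4 encode large cadherins that bind each other across cell borders. Every group had 30 libraries except Dchs1 liver Het, which had 29. By the fold change fitted to counts, the targeted transcript stood at 42.3% to 46.6% of WT in the 4 tissues of the Dchs1 line. In the 4 tissues of the Fat4 line it stood at 47.8% to 51.9% of WT. Values in CPM below are counts scaled to library size. Library totals ran between 10720364 and 32282525 reads, with a median of 18978025. The labels give no sex, age or batch and do not tie a library to an animal. The library is thus the unit of replication, and the p-values below weigh each difference against the spread between libraries. In whole tissue, fewer cells of a type and less RNA per cell cannot be told apart. Libraries whose correlation with the others of their tissue and line was far below the rest, by the limit given with the processing, numbered 3 Het and 2 WT in Dchs1 lung, 1 Het and 3 WT in Fat4 liver, 1 WT in Fat4 heart and 1 Het in Fat4 lung.

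Of the 78 members, 75 passed the filter on low counts in at least 1 of the 8 comparisons of Het with WT libraries. Ndufs5, an accessory subunit of complex I, passed in none of these 8: its highest value in any library was 12.9 TPM (transcripts scaled to length and to the library total) and its median over all libraries was 9.22e-26 TPM. The neighbouring name Ndufs5-ps, a row of the same tables, had a median of 142 TPM, with a range of 90.1 to 354.8 TPM. How reads were divided between these rows was not tested, so its values are not read further. It did enter the tests between the lines in heart and lung, where it was not called, with adjusted p-values of 0.797 and 0.920 by edgeR. Cox7b2 and Cox8c, paralogs best known from testis, reached at most 0.740 and 0.256 TPM. Cox4i2 and Cox7a1 were not tested in 2 comparisons each, Cox6a2 in 3 and Cox8b in 2. Cycs and Cox7c had counts that were not whole in 100% of libraries, Ndufaf7 in 97.9%, Ndufa7 in 95.8%, Ndufa4 in 36.3% and Ndufa4l2 in 35.9%. Some of their reads may have been divided between rows, which was not tested, and their values are less certain.

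The promoters of 4 members are shown because these genes carry results below: Cycs and Ndufaf4 changed in opposite directions between tissues, and Cox8a and Cox8b are a pair used in different tissues. Each window runs from 250 bases before the annotated start to 50 bases after it, read 5′ to 3′ on the gene's strand, from RefSeq on GRCm38.p6. Capitals mark the match to NRF1 (CGCANGCG) in Cycs and Ndufaf4, to GABP (CCGGAAG, here on the opposite strand) in Cox8a and to the TATA box (TATAAA) in Cox8b. The windows lie at chr6:50566520-50566819 on the minus strand for Cycs, chr4:24897833-24898132 on the plus strand for Ndufaf4, chr19:7217567-7217866 on the minus strand for Cox8a and chr7:140900397-140900696 on the minus strand for Cox8b.
Cycs: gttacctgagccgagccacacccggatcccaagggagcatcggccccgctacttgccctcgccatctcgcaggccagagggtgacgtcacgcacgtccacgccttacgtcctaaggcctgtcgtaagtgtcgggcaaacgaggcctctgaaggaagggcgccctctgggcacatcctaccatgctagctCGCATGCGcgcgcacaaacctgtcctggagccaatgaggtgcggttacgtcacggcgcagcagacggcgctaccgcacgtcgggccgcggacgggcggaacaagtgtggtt
Ndufaf4: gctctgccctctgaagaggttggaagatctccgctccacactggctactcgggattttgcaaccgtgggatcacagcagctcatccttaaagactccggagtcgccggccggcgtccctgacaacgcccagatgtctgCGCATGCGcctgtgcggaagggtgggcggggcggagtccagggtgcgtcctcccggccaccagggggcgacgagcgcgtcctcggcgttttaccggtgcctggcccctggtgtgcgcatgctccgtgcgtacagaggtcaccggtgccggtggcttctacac
Cox8a: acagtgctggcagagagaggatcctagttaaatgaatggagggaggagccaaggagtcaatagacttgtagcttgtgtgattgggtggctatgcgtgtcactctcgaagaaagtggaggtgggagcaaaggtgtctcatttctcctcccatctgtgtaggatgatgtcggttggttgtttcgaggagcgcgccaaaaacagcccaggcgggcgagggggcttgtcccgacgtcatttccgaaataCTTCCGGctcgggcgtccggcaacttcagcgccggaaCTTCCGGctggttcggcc
Cox8b: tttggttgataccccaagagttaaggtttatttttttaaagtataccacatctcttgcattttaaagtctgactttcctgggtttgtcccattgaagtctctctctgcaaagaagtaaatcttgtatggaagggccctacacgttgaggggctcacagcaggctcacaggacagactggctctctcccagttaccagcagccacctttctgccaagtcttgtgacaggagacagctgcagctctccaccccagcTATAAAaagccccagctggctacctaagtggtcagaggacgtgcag

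A promoter window was found for 62 of the 78 members, 64 windows in all, and 5 motifs were searched on both strands, with overlaps allowed. The NRF1 letters, those of a factor known for respiratory chain promoters, were in 34.4% of member windows and 8.21% of all 32851 promoter windows. The GABP letters were in 20.3% and 8.86%, and those of YY1 (AAGATGGC) in 12.5% and 2.75%. The letters of the oestrogen-related receptors (CAAGGTCA) were in 3.12% of member windows, which is 2 windows, and in 1.56% of all windows. The TATA letters were in 10.9% and 13.6%. These are matches of letters and not measured binding.

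The summed level of the 78 members was highest in heart and lowest in lung in both lines. In the Dchs1 line the sum had a median of 31672 TPM in Het hearts and 31770 TPM in WT hearts, 17374 TPM in Het kidneys and 18884 TPM in WT kidneys, 14776 TPM in Het livers and 14184 TPM in WT livers, and 9995 TPM in Het lungs and 10023 TPM in WT lungs. In the Fat4 line the medians were 31596 TPM in Het hearts and 31215 TPM in WT hearts, 21417 TPM in Het kidneys and 20730 TPM in WT kidneys, 11944 TPM in Het livers and 12259 TPM in WT livers, and 9233 TPM in Het lungs and 9351 TPM in WT lungs. Among WT libraries of either line, every heart lay above every kidney, and liver and lung overlapped in their ranges. Kidney and liver overlapped in the Dchs1 line and not in the Fat4 line. Of the Het hearts, the lowest of the Dchs1 line, at 20135 TPM, fell within the range of the kidneys. Within each tissue and line, the ranges of Het and WT libraries overlapped. TPM divides each library by its total, and rows of the mitochondrial genome took a median of 61.4% of TPM in Dchs1 Het hearts and 62.3% in Dchs1 WT hearts, but 9.01% in Het and 9.01% in WT lungs of that line.

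**Figure D1:**
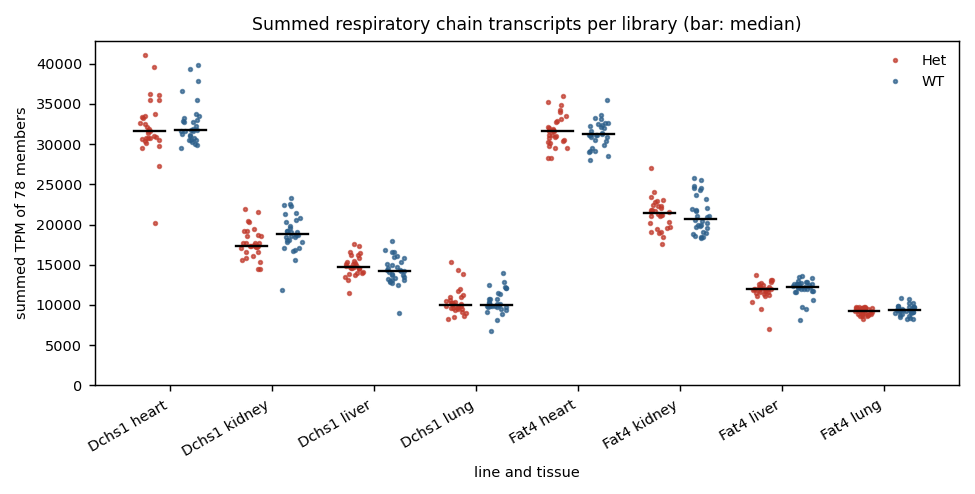
Summed level of the 78 members in TPM (y axis) in each library (points), by line, tissue and genotype, with the median of each group as a bar. Heart medians sit highest and lung medians lowest, 1 Dchs1 Het heart lies among the kidneys, and Het and WT libraries overlap in every tissue.

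Single members kept the same tissue order in WT libraries of the Fat4 line. Ndufs1, an iron-sulfur core subunit of complex I at chr1:63143592-63176822, had medians of 253 TPM in heart, 104 TPM in kidney, 72.3 TPM in liver and 46.8 TPM in lung. Uqcrc1, a core subunit of complex III at chr9:108936648-108949641, had 438, 213, 131 and 82.3 TPM in the same tissues. Cox4i1, a subunit of complex IV at chr8:120668225-120674209, had 1482, 941, 544 and 410 TPM. Cycs, at chr6:50562563-50566569, had 659 TPM in heart, 442 TPM in kidney, 134 TPM in liver and 67.7 TPM in lung. The ranges of liver and lung overlapped for all 4 genes, those of kidney and liver for Ndufs1, and those of heart and kidney for Cycs, where the highest kidney library had 584 TPM and the lowest heart library 569 TPM. The other neighbours did not overlap. These levels were not tested between tissues.

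The paired complex IV genes divided by tissue. Cox6a2, the muscle form of subunit 6A, made up a median of 96.2% of the Cox6a1 and Cox6a2 total in Dchs1 Het hearts and 96.5% in Dchs1 WT hearts. In lungs of that line its share was 16.3% in Het and 15.6% in WT libraries, and in kidneys it was 0.0731% in Het and 0.194% in WT libraries. Cox7a1 had 68.5% of the Cox7a1 and Cox7a2 total in Het hearts and 67.8% in WT hearts. Cox8b, with the TATA letters shown above, had 89.7% of the Cox8a and Cox8b total in Het hearts and 90.7% in WT hearts, and 0.986% in Het kidneys and 1.15% in WT kidneys. Cox4i2, known as the lung form of subunit 4, had 13.9% of the Cox4i1 and Cox4i2 total in Het lungs and 16.1% in WT lungs, against 0.486% in Het hearts and 0.495% in WT hearts. Thus the muscle forms stood out in heart and Cox4i2 in lung, in both genotypes.

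**Figure D2:**
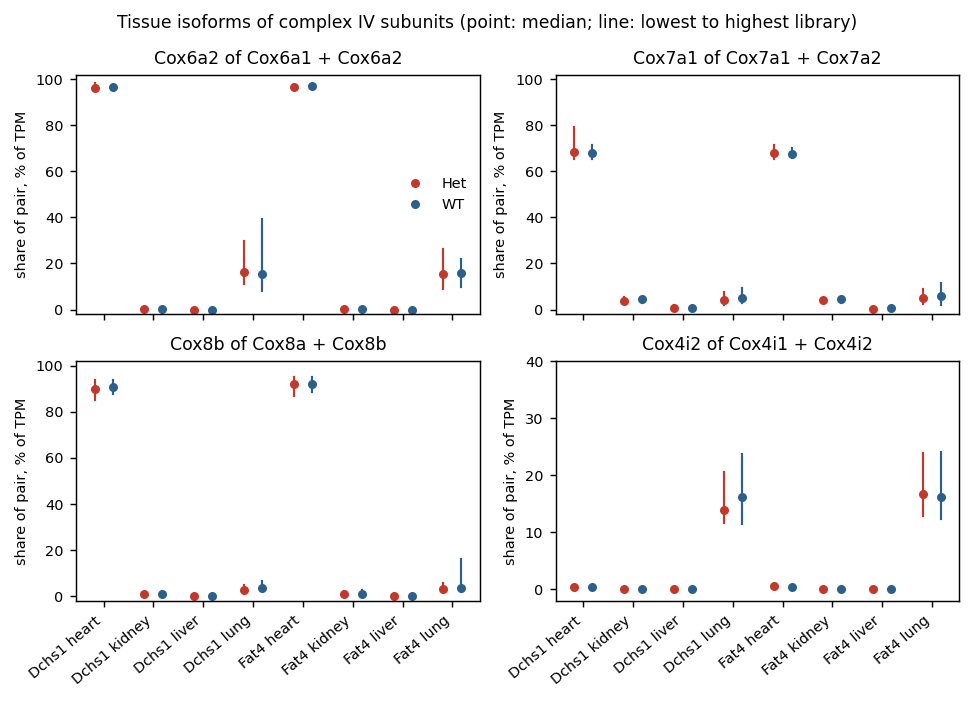
Share (percent of the TPM of each gene pair, y axis) taken by Cox6a2, Cox7a1, Cox8b and Cox4i2, by line, tissue and genotype, with the group median as a point and the lowest to the highest library as a line. Cox6a2, Cox7a1 and Cox8b take most of their pair in heart, and Cox4i2 has its highest share in lung.

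The comparison of Het with WT libraries in each line and tissue asked which members differed when 1 of these cadherin genes was reduced. Members were tested with edgeR's quasi-likelihood F test on counts, fitted over all genes of a comparison, and called at a Benjamini-Hochberg adjusted p under 0.05. Over the 8 comparisons, 10 members were called in none, 29 in 1, 22 in 2, 13 in 3, 3 in 4 and 1 in 5. The last was Uqcrfs1, the Rieske iron-sulfur protein of complex III, and the 3 called in 4 were Cycs, Uqcrc1 and Uqcrc2. Cox4i1, Cox4i2, Cox8b, Ndufa7, Ndufa9, Ndufaf5 and Ndufaf7 were tested and called in none, the remaining 3 being Ndufs5, Cox7b2 and Cox8c, untested in these 8. The Dchs1 line held most of the calls, as the map of fold changes shows.

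**Figure D3:**
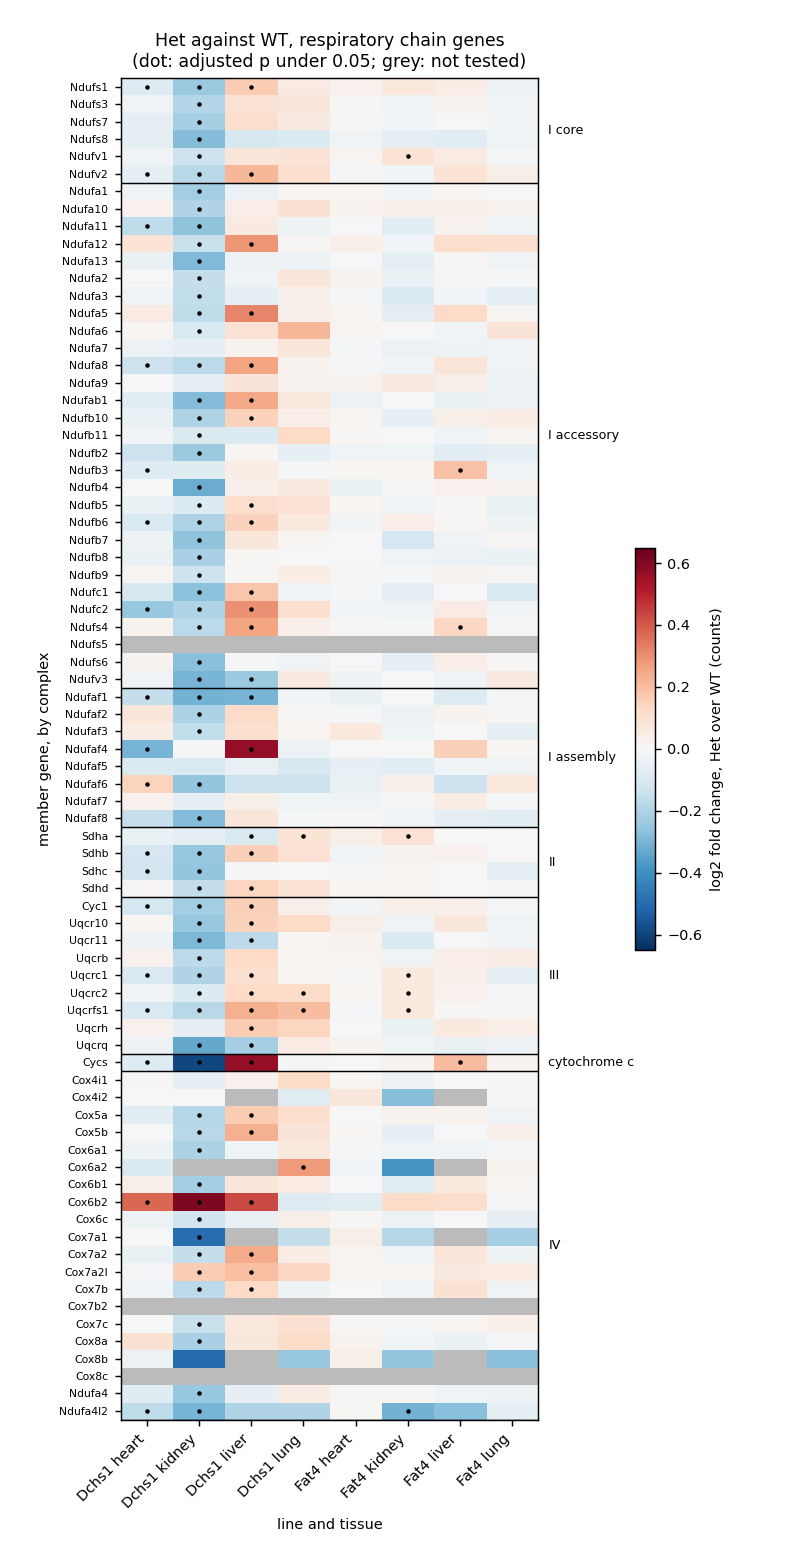
Log2 fold change of Het over WT (colour) of the members reported by name (rows, by complex) in the 8 comparisons (columns), with a dot where the member was called and grey where it was not tested. Dchs1 kidney is lower across nearly all rows and Dchs1 liver higher across many, while the Fat4 columns hold few dots.

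In Dchs1 kidney, 61 of the 74 members tested were lower in Het and 2 were higher, with a median log2 fold change of -0.19 over the 74. Over all 14142 genes tested there, 23.8% were called lower and 23.4% higher, and the median was 0.01. All 7 core subunits of complex I were lower, as were 25 of 28 accessory subunits, 5 of 8 assembly factors, 3 of 4 subunits of complex II, 8 of 9 of complex III, Cycs, and 12 of 17 genes of complex IV. Cox6b2 and Cox7a2l, both of complex IV, were the 2 members that were higher. Runs of consecutive library numbers, the only stand-in for a batch, gave 58 lower and 2 higher in the longest run alone (25 Het and 23 WT libraries), and 62 lower and 2 higher with the run as a covariate. Scaling by library totals alone gave 45 lower and 2 higher. Shares over all genes are given only for the main fits on counts and TPM. Counts under the alternatives, here and below, are not set against them. Summed member levels ran higher in the shorter run, with overlap. There they were 17695 to 21883 TPM in Het and 18711 to 23261 TPM in WT kidneys. In the longest run they were 14410 to 19386 TPM in Het and 11885 to 22466 TPM in WT kidneys.

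Cycs fell most. Its lowest, median and highest values were 155, 235 and 306 CPM in Het kidneys, against 222, 355 and 489 CPM in WT kidneys. All 30 Het libraries lay below the WT median and 10 lay below the lowest WT library, so the groups overlapped in part. The log2 fold change was -0.59 ± 0.056 (SE), with an adjusted p of 2.26e-13 by edgeR's quasi-likelihood test. That is 66.4% of the WT level.

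Among core subunits of complex I, Ndufs8, which carries iron-sulfur clusters, had 62.2, 71.2 and 94.9 CPM in Het kidneys, against 68.8, 86.8 and 118 CPM in WT kidneys. Its log2 fold change was -0.28 ± 0.042 and 29 of 30 Het libraries lay below the WT median. Ndufs1 had a fold change of -0.24 ± 0.040, with 28 of 30 below, and Ndufv2, of the NADH-oxidising module, -0.18 ± 0.033, with 26 of 30 below. Of the accessory subunits, Ndufab1, the mitochondrial acyl carrier protein, had 42.2, 50.3 and 59.9 CPM in Het kidneys and 48.4, 62.4 and 71.3 CPM in WT kidneys, a log2 fold change of -0.28 ± 0.032 with 30 of 30 Het libraries under the median of WT. Ndufb4 was lower by a log2 fold change of -0.32 ± 0.041 and Ndufv3 by -0.30 ± 0.044. Of the assembly factors, Ndufaf1 fell most clearly, with -0.31 ± 0.031 and 30 of 30 Het libraries under the median of WT, and Ndufaf6 and Ndufaf8 had -0.25 and -0.28. Het and WT libraries overlapped in range for each of these genes.

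In complex II, Sdhc, which anchors the enzyme in the membrane, had 145, 164 and 200 CPM in Het kidneys, against 157, 202 and 219 CPM in WT kidneys. Its log2 fold change was -0.25 ± 0.032, and 30 of 30 Het libraries lay below the WT median. The iron-sulfur subunit Sdhb had -0.24 ± 0.038 and the second anchor, Sdhd, -0.16 ± 0.035, whereas the flavoprotein Sdha was the member of the complex that did not pass. In complex III, Uqcrq had -0.33 ± 0.053, Cyc1, which holds the haem of cytochrome c1, -0.22 ± 0.037, Uqcr11 -0.29 ± 0.053 and Uqcrc1 -0.20. In complex IV, the muscle form Cox7a1 had 2.35, 3.49 and 4.92 CPM in Het kidneys, against 2.64, 5.01 and 6.72 CPM in WT kidneys, a log2 fold change of -0.50 ± 0.078. Ndufa4 and Cox6b1 had -0.24 and -0.22. Cox4i1 was not called, at -0.07 with an adjusted p of 0.110.

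The 2 members that were higher in Het kidneys were Cox6b2, the testis form of subunit 6B, and Cox7a2l, which is known to help join complexes III and IV into supercomplexes. Cox6b2 had 3.75, 5.41 and 10.8 CPM in Het kidneys, against 2.13, 3.57 and 6.72 CPM in WT kidneys, and 30 of 30 Het libraries lay above the WT median. Its log2 fold change was 0.61 ± 0.093, with an adjusted p of 1.68e-07 by edgeR's quasi-likelihood test. Its share of the Cox6b1 and Cox6b2 TPM was 2.61% in Het kidneys and 1.40% in WT kidneys. Cox7a2l had a log2 fold change of 0.16 ± 0.028, again with 30 of 30 Het libraries above the WT median.

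Markers of the proximal tubule were also lower in Het kidneys: 7 of 10 were called lower and 0 higher, with a median log2 fold change of -0.54 and 0 of the 10 markers at 0. Their summed level had a lowest, median and highest value of 19948, 29945 and 42560 TPM in Het kidneys, against 30064, 49567 and 58980 TPM in WT kidneys. Slc34a1, the phosphate transporter of this segment, had -0.63, and Slc7a13, a transporter of its last part, -1.32, while Cubn was not called. Of 2 markers of the thick ascending limb, Umod was higher, at 0.24. Of 5 leukocyte markers, 4 were lower, and of 4 endothelial markers 0 were called. The part of these shifts in the respiratory chain result was not tested.

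In Dchs1 liver the balance was the other way: 29 of the 71 members tested were higher in Het and 5 were lower, with a median log2 fold change of 0.09. Over all 12526 genes tested there, 24.3% were called higher and 25.4% lower, and the median was 0.00. The higher members were 3 of 7 core and 10 of 28 accessory subunits of complex I, 1 of 8 assembly factors, 2 of 4 subunits of complex II, 6 of 9 of complex III, Cycs, and 6 of 14 genes of complex IV. The lower ones were Ndufaf1, Ndufv3, Sdha, Uqcrq and Uqcr11. Within the longest run of library numbers 43 were higher and 4 lower, and with the run as a covariate 40 were higher and 5 lower. The shares of all genes called in these 2 fits are not given here, so the rise from 29 is not read as a result about members. Among WT livers, summed member levels were 15831 to 17916 TPM in the shorter run and 8983 to 15336 TPM in the longest. Among Het livers they were 11515 to 17576 TPM and 13071 to 16581 TPM. Scaling by library totals alone gave 19 higher and 7 lower, and Uqcrc1, Sdhb, Sdhd and Cox7b were among those that then missed the threshold.

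Cycs and Ndufaf4, an assembly factor of complex I, moved most. Cycs had 203, 250 and 332 CPM in Het livers, against 124, 167 and 254 CPM in WT livers. All 29 Het libraries lay above the WT median and 12 lay above the highest WT library. The log2 fold change was 0.57 ± 0.060, with an adjusted p of 1.07e-11 by edgeR's quasi-likelihood test. Ndufaf4 had 31.3, 49.1 and 76.3 CPM in Het livers, against 22.4, 31.7 and 64.9 CPM in WT livers, with 28 of 29 Het libraries above the WT median. Its log2 fold change was 0.57 ± 0.079, with an adjusted p of 1.75e-08 by the same test.

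Most other called members of Het livers moved by less. Ndufc2, an accessory subunit, had 39.2, 49.6 and 61.9 CPM in Het livers, against 31.8, 40.9 and 53.7 CPM in WT livers, a log2 fold change of 0.30 ± 0.044. Ndufa8 had 0.26 ± 0.040 and Ndufs4 0.26 ± 0.043, and Ndufs1 0.16 ± 0.027. In complex III, Uqcrfs1 had 0.23 ± 0.043, Uqcrc2 0.13 ± 0.027 and Uqcrc1 0.10. In complex IV, Cox7a2l had 0.20 ± 0.035 with 29 of 29 Het libraries above the WT median, Cox7a2 0.24 ± 0.053 and Cox5b 0.23 ± 0.054. Of the lower members, Ndufaf1 had 16.4, 19.9 and 23.3 CPM in Het livers, against 17.1, 24.3 and 28.7 CPM in WT livers, a log2 fold change of -0.30 ± 0.037 with 29 of 29 Het libraries under the median of WT. Sdha had -0.10, Ndufv3 -0.24, Uqcrq -0.22 and Uqcr11 -0.17, and Uqcr11 missed the threshold, at -0.09, in the longest run of library numbers alone. Of the 4 general liver markers, 3 were higher and 1 lower in Het livers. Of 4 leukocyte markers 2 were lower (median log2 fold change -0.38), of 4 endothelial markers 2 were lower and 1 higher, of 5 fibroblast markers 1 was lower and 1 higher, and of 5 erythroid markers 1 was lower. The part of these shifts in the liver result was not tested.

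In Dchs1 heart, 16 of the 75 members tested were lower in Het and 2 were higher. Over all 13304 genes tested there, 24.1% were called lower and 26.1% higher, and the median of the members was -0.03 against 0.00 for all genes. Members were thus called in neither direction more often than genes at large. The longest run of library numbers alone gave 16 lower and 2 higher, and the run as a covariate 15 lower and 2 higher. Summed member levels ran higher in the shorter runs, with overlap. There they were 29570 to 41148 TPM in Het and 33312 to 39814 TPM in WT hearts. In the longest run they were 20135 to 36259 TPM in Het and 29570 to 33739 TPM in WT hearts. Lower members were 2 of 7 core and 5 of 28 accessory subunits of complex I, 2 of 8 assembly factors, 2 of 4 subunits of complex II, 3 of 9 of complex III, Cycs and 1 of 18 genes of complex IV. Ndufaf4 had 35.0, 39.8 and 46.8 CPM in Het hearts, against 38.4, 50.5 and 57.8 CPM in WT hearts, with 30 of 30 Het libraries under the median of WT. Its log2 fold change was -0.30 ± 0.035, with an adjusted p of 1.96e-10 by edgeR's quasi-likelihood test. Ndufc2 had -0.24 ± 0.033, again with 30 of 30 below, and Ndufaf1 -0.15 ± 0.025. Other called members moved by little, for example Cycs by -0.08 ± 0.026, Uqcrc1 by -0.10 ± 0.028, Ndufs1 by -0.08 ± 0.029 and Sdhc by -0.12 ± 0.030. Cox6b2 was higher, at 0.38 ± 0.10, with 0.506, 1.29 and 2.03 CPM in Het hearts, against 0.507, 0.917 and 1.60 CPM in WT hearts, and so was Ndufaf6, at 0.14 ± 0.046. Of the markers of heart muscle, 2 of 4 were lower, of the erythroid markers 4 of 6 and of the skeletal muscle markers 2 of 3. Of 5 fibroblast markers, 4 were lower and 1 higher, with a median log2 fold change of -0.54, of 4 leukocyte markers 2 were lower (median -0.39), and of 4 endothelial markers 1 was lower and 2 were higher. The part of these shifts in the heart result was not tested.

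**Figure D4:**
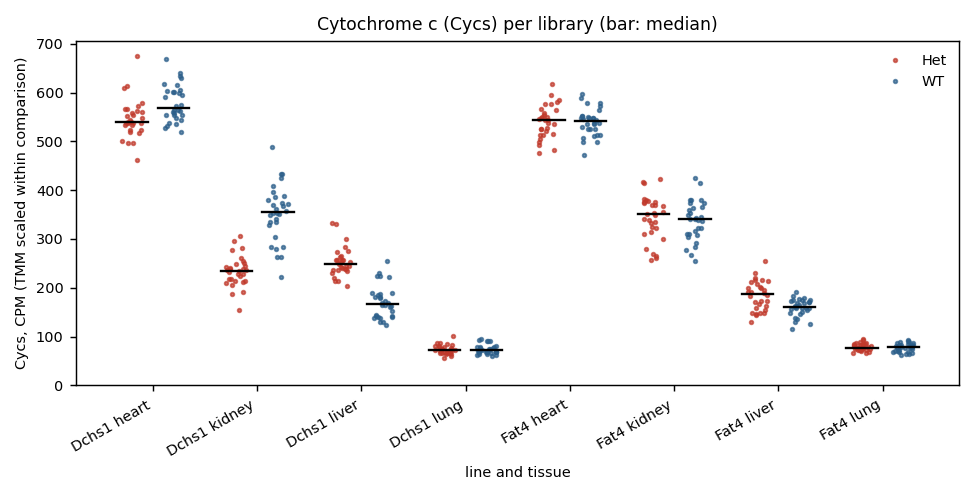
Cycs in CPM (y axis) in each library (points), by line, tissue and genotype, with the median of each group as a bar. All 30 Dchs1 Het kidneys lie below the WT median, 10 of them below the lowest WT library, and all 29 Dchs1 Het livers lie above the WT median, 12 of them above the highest.

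Members called in more than 1 tissue of the Dchs1 line were counted by direction. Of the 61 members lower in Het kidneys, 25 were among the 29 higher in Het livers, including Cycs, Ndufs1, Ndufc2, Sdhb, Uqcrc1 and Cyc1. Of the 16 lower in Het hearts, 14 were lower in Het kidneys and 11 were higher in Het livers. Since 61 of the 74 members tested were lower in kidney, most of any list of members would be among them, and nothing is read from these shared counts. Ndufaf1 was lower in all 3 tissues and Cox6b2 was higher in all 3. In liver, Cox6b2 was a low gene, at a median of 0.496% of the Cox6b1 and Cox6b2 TPM in Het and 0.424% in WT libraries. There it missed the threshold on log2(TPM + 1), at 0.25. The difference between kidney and liver was tested directly, as the log2 fold change of Het over WT in kidney minus that in liver, a test added after these patterns were seen. It was lower for 54 of 74 members and higher for 0, with a median of -0.28, against 18.9% lower and 17.2% higher over 14668 genes. Cycs differed most, at -1.17, and Ndufc2, Ndufa8, Ndufs1 and Ndufv2 at -0.51, -0.44, -0.41 and -0.40. Among the 20 members that did not pass were Ndufaf1, Uqcrq, Uqcr11, Cox6b2 and Cox7a2l, which were called in the same direction in both tissues, as well as Sdha and Cox4i1.

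In Dchs1 lung, 5 of the 75 members tested were higher in Het and 0 were lower. Over all 15069 genes, 9.6% were called higher and 10.4% lower. At an unadjusted p under 0.05, 1 member was lower by edgeR, and DESeq2 also called 5 higher and 0 lower. Uqcrfs1 had 48.0, 65.1 and 103 CPM in Het lungs, against 27.0, 56.7 and 89.6 CPM in WT lungs, with 28 of 30 Het libraries above the WT median. The ranges overlapped, and its log2 fold change was 0.20 ± 0.069. Uqcrc2 had 0.12 ± 0.036, Sdha 0.09 ± 0.026 and Cox6a2 0.28 ± 0.097. Without the libraries that stood apart, 4 members were higher and 1 lower, and Cox6a2 missed the threshold at 0.23. The longest run of library numbers alone gave 7 higher and 2 lower, and the run as a covariate 8 higher and 1 lower. Scaling by library totals alone gave 2 higher and 1 lower, and Uqcrfs1, Uqcrc2 and Sdha then missed the threshold, at 0.16, 0.09 and 0.06. Members varied more between Dchs1 lung libraries than in any other group: their median biological coefficient of variation was 0.280 in Het and 0.266 in WT lungs, against 0.200 and 0.197 over all genes. Summed member levels also differed by run of library numbers. In the shorter run they were 11034 to 15397 TPM in Het and 11365 to 13993 TPM in WT lungs. In the longest run they were 8266 to 11253 TPM in Het and 6697 to 12427 TPM in WT lungs. The part of the run in this spread was not tested. In those lungs, 4 of 5 leukocyte markers and 4 of 5 fibroblast markers were lower, which was not tested as a part of the result.

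The Fat4 line gave few calls. In Fat4 heart, 0 of 75 members were higher and 0 lower, against 0.969% and 0.628% of 13213 genes. Neither edgeR at an unadjusted p under 0.05 nor DESeq2 after adjustment called any in either direction, and the fold changes lay between -0.07 and 0.07. The longest run alone, the run as a covariate and leaving out the library that stood apart also gave 0 and 0. In Fat4 lung, 0 of 75 members were higher and 0 lower, against 0.11% and 0.0259% of 15415 genes. There, 1 was higher and 2 were lower by edgeR at an unadjusted p under 0.05, and DESeq2 called 0 after adjustment, as did edgeR without the library that stood apart. All libraries of that comparison formed 1 run of numbers.

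In Fat4 kidney, 5 of 75 members were higher and 1 was lower, against 9.21% and 7.87% of 14014 genes, although the median over the 75 was -0.02. The higher ones were Ndufv1, the NADH-binding core subunit, at 0.09 ± 0.025, Sdha at 0.09 ± 0.032, Uqcrc2 at 0.07 ± 0.022, Uqcrfs1 at 0.07 ± 0.023 and Uqcrc1 at 0.07 ± 0.022. Ndufv1 had 182, 204 and 236 CPM in Het kidneys, against 170, 190 and 214 CPM in WT kidneys, with 24 of 30 Het libraries above the WT median. The groups overlapped widely. Ndufa4l2, whose transcript is known to rise in low oxygen, was lower, at -0.31 ± 0.093, with 1.08, 1.82 and 3.08 CPM in Het kidneys, against 1.26, 2.20 and 3.88 CPM in WT kidneys. The longest run of library numbers alone gave 2 higher and 2 lower, without Sdha, Uqcrc1 and Uqcrfs1, and the run as a covariate 5 higher and 0 lower, without Sdha and Ndufa4l2. Scaling by library totals alone gave 1 higher and 1 lower, without Sdha, Uqcrc1, Uqcrc2 and Uqcrfs1. Of the markers in Fat4 kidney, 1 of 10 of the proximal tubule was higher, 2 of 2 of the thick ascending limb were lower and 3 of 4 endothelial ones were lower, and their part was not tested. In Fat4 liver, 3 of 71 members were higher and 0 lower, against 3.64% and 3.51% of 12484 genes. At an unadjusted p under 0.05, 1 was lower by edgeR, and DESeq2 called 1 lower after adjustment. Cycs had 131, 187 and 256 CPM in Het livers, against 115, 162 and 192 CPM in WT livers, a log2 fold change of 0.20 ± 0.052 with 22 of 30 Het libraries above the WT median. Ndufb3 had 0.19 ± 0.048 and Ndufs4 0.14 ± 0.040. The longest run alone gave 2 higher and 1 lower and the run as a covariate 2 higher and 0 lower, both without Ndufs4, and leaving out the 4 libraries that stood apart gave 3 higher and 1 lower.

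Whether the lines differed was tested as the Het effect in the Dchs1 line minus that in the Fat4 line. In kidney 45 of 75 members had a lower difference and 2 a higher one, against 16.5% and 17% of 14353 genes. Cycs differed by -0.60, Ndufaf1 by -0.29, Ndufab1 by -0.28, Sdhc by -0.26 and Uqcrc1 by -0.25, and Cox6b2 and Cox7a2l were the 2 with a higher difference. The longest runs alone gave 38 members with a difference and the run as a covariate 50, but library totals without TMM factors gave 21. In heart 11 of 76 had a lower difference and 2 a higher one, against 12.6% and 12.9% of 13623 genes, so the share with a lower difference lay near that of all genes. Ndufaf4 differed by -0.30, Ndufc2 by -0.24 and Ndufa11 by -0.17. In liver 11 of 71 had a higher difference and 1 a lower one, against 12.2% and 11.4% of 12855 genes, so the share with a higher difference lay near that of all genes there too. Ndufaf4 differed by 0.43, Cycs by 0.38 and Ndufc2 by 0.26. The longest runs alone gave 36 members and the run as a covariate 22, in place of 12. In lung 0 of 76 had a higher difference and 0 a lower one, against 1.96% and 3.05% of 15496 genes. There, 6 passed at an unadjusted p under 0.05 by edgeR, and DESeq2 called 2, while the longest runs alone gave 5 and the run as a covariate 4.

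The deposited TPM gave a partly different account, tested with limma on log2(TPM + 1). In Dchs1 kidney, 29 of 75 members were lower and 2 were higher, against 10.7% and 39.2% of 12684 genes, and the member median was -0.10. Calls over all genes were 4968 higher and 1358 lower on TPM, against 3304 higher and 3367 lower on counts. Of the members, 30 were called on both scales and 33 on counts alone, and Cox6a2, not tested on counts there, was lower on TPM, at -0.71. Cox6a2 lay near the floor, at a median of 0.0731% of its pair in Het and 0.194% in WT kidneys, so little is read from its fold change. Cycs had -0.49 on TPM, Ndufaf1 -0.20 and Cox6b2 0.66. Fold changes on this scale understate those of low genes. Rescaling the TPM by TMM factors computed from the TPM itself gave 58 lower and 2 higher in Dchs1 kidney and 29 higher and 5 lower in Dchs1 liver. It gave 18 lower and 2 higher in Dchs1 heart and 4 higher and 0 lower in Dchs1 lung. In that line the counts of calls thus moved with the scaling.

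In Dchs1 liver, 18 of 72 members were higher and 7 lower on TPM, against 20.3% and 25.4% of 11112 genes. In Dchs1 heart, 3 of 75 were higher and 10 lower, against 24.6% and 19.8% of 11633 genes. In Dchs1 lung, 1 of 75 was higher and 4 lower, against 4.06% and 11.5% of 14465 genes, where the split over all genes was 587 higher and 1664 lower on TPM and 1447 higher and 1571 lower on counts. In Fat4 kidney, 1 of 75 was higher and 1 lower, against 7.77% and 3.63% of 12742 genes, where the split over all genes was 990 higher and 463 lower on TPM and 1290 higher and 1103 lower on counts. In Fat4 liver, 1 of 72 was higher and 3 lower, against 0.921% and 5.93% of 11183 genes, where the split over all genes was 103 higher and 663 lower on TPM and 454 higher and 438 lower on counts. In Fat4 heart, 0 of 75 were called, against 0.989% higher and 0.146% lower of 11631 genes, and 2 were higher at an unadjusted p under 0.05 by limma. The split over all genes there was 115 higher and 17 lower on TPM and 128 higher and 83 lower on counts. In Fat4 lung, 0 of 75 were called, against 0.0415% higher and 0.0277% lower of 14463 genes, and 2 were higher and 8 lower at an unadjusted p under 0.05 by limma. Over all genes of that comparison, 6 were higher and 4 lower on TPM, and 17 higher and 4 lower on counts. No member was called in opposite directions by counts and TPM.

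**Figure D5:**
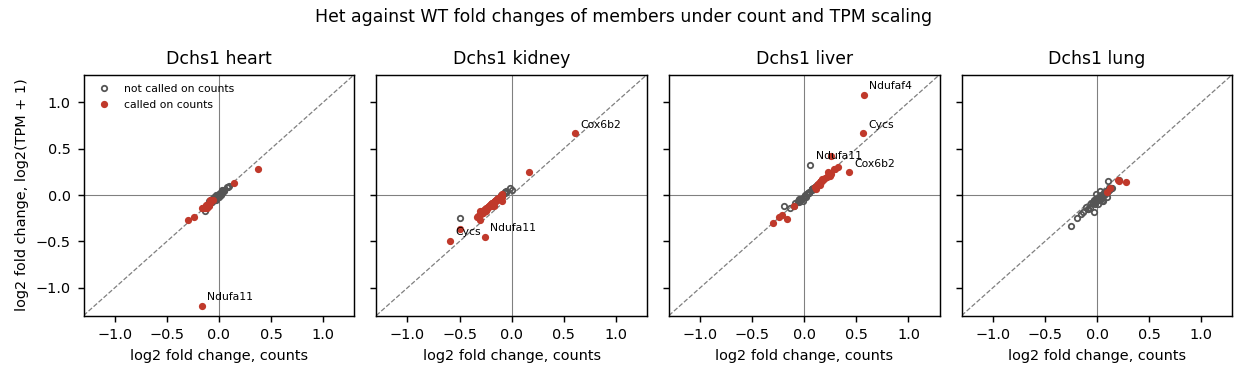
Log2 fold change of Het over WT on TPM (y axis) against that on counts (x axis) for each tested member (points) in the 4 tissues of the Dchs1 line. In kidney most points lie above the line of equal values, so members that are lower on counts are less so on TPM, whereas Ndufa11 lies below it in heart and kidney.

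For single members the scales differed by more. Ndufa11, an accessory subunit of complex I, had a log2 fold change of -1.20 on TPM in Dchs1 heart but -0.16 on counts. Its median was 44.3 TPM in Het hearts and 259 TPM in WT hearts, while its median on counts was 80.9 CPM in Het and 93.1 CPM in WT hearts. The TPM given per CPM fell into separate levels, near 0.5 and near 2.8, and was above 1.5 in 8 of 30 Het and in 21 of 30 WT hearts. The value from counts is the one used here. Ndufaf4 in Dchs1 liver had a log2 fold change of 1.08 on TPM and 0.57 on counts, with 0.761 TPM per CPM in Het and 0.441 in WT livers at the median. What sets the TPM per CPM in a library was not tested.

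Other mitochondrial genes were listed for context. Over all genes, 23.8% were called lower and 23.4% higher in Dchs1 kidney, and 24.3% higher and 25.4% lower in Dchs1 liver. In Dchs1 kidney, 16 of 18 genes of ATP synthase were lower and 0 higher (median log2 fold change -0.20), and 13 of 18 of the tricarboxylic acid cycle were lower and 1 higher (median -0.13). There, 51 of 78 genes of the mitochondrial ribosome were lower and 2 higher (median -0.12), and 18 of 33 assembly factors of complexes III and IV were lower and 1 higher (median -0.11). Of the 13 chains encoded by mitochondrial DNA, 1 was lower, COX2 at -0.18. In Dchs1 liver, 9 of 18 ATP synthase genes were higher and 0 lower (median 0.12), 12 of 18 of the cycle were higher and 1 lower (median 0.14), and edgeR called 0 of the 13 mitochondrial DNA genes. Fh1, the fumarase, had 0.95 and Idh3a 0.68 in Het livers. Among regulators of mitochondrial genes, 5 of 21 were higher and 3 lower in Dchs1 liver, against 24.3% and 25.4% of all genes. There Ppargc1a, a coactivator of respiratory chain genes, had 1.15, Esrra 0.40 and Ppara -0.38. In Dchs1 heart 5 of 22 were higher and 8 lower, against 26.1% and 24.1% of all genes, and Perm1 had -0.91, Ppargc1b -0.42 and Esrra -0.23. In Dchs1 kidney 4 of 22 were higher and 3 lower, against 23.4% and 23.8% of all genes, and Esrrb had 0.56, Perm1 -0.40 and Esrra -0.19. Apart from the 8 lower in heart, the counts of regulators lay near or under the shares of all genes. The Fat4 line had 7 of 18 genes of the cycle higher in kidney, with Fh1 at 0.18, and 0 lower, against 9.21% and 7.87% of all genes.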

How the data were processed

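Messenger RNA was sequenced from 479 libraries of 4 tissues, per the labels, after poly(A) selection and strand-specific single-end preparation. Read length is given inconsistently there. From the submitters' processing notes come bcl2fastq 2.17, FastQC and the build GRCm38; for aligner and counting program, the names were not given in the sources used here. Estimated counts deposited by the authors are in part not whole (15.5% of the Dchs1 table's values and 15.7% of the Fat4 table's). How reads were divided to give such values was not tested. TPM, also deposited by the authors, corrects for transcript length and for the library total and keeps no depth. Of 24475 rows, 24375 matched a symbol on GRCm38.p6 and 100 did not, and 0 columns were left unmatched to a library. No pair of libraries within a group looked like a repeat (lowest chi-square per gene 3.48). A total of 10720364 reads, the smallest, limits the precision of low genes most, and SEs cover the spread between libraries.

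After rounding to whole numbers, the estimated counts went into edgeR 4.0.16 under R 4.3.3 (TMM scaling, filterByExpr with a minimum count of 10 and a minimum total of 15, quasi-likelihood F test), each comparison on its own libraries, with Benjamini-Hochberg adjustment over all genes tested and a threshold of 0.05. Each SE is the size of the log2 fold change divided by the square root of its F. CPM values are TMM-scaled within a comparison. TPM was tested with limma 3.58.1 on log2(TPM + 1), for genes of at least 1 TPM in 20 or more libraries. Differences between lines were interaction terms of the same edgeR test, and the kidney and liver test treats the libraries of these tissues as separate. Alternatives were DESeq2 1.42.0, its size factors, library totals, no filter, a pseudocount of 0.1, TPM rescaled by TMM factors, the longest run of library numbers alone or the run as a covariate, and leaving out libraries whose median correlation lay more than 5 median absolute deviations below the rest. Added after seeing the data were TPM rescaled over the rows outside the mitochondrial genome and the kidney minus liver test. Scripts were tested on simulated data.

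The members, the context lists and the marker lists were chosen with earlier results of these data known. Genes were named by rule: Ndufs1, Uqcrc1, Cox4i1 and Cycs, up to 3 called members per complex and direction with the smallest p, the isoform pairs, the 5 members with the smallest interaction p per tissue, and the largest changes. Some genes that this rule selects are counted but not reported here by name.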

Additional observations from a re-analysis of the deposited data

Results flagged for a closer look

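The Het effect of members differed between the Dchs1 and Fat4 lines by an interaction test (edgeR's quasi-likelihood test with Benjamini-Hochberg adjustment over all genes) in 13 of 76 members in heart, 47 of 75 in kidney and 12 of 71 in liver. Over all genes the test called 12.9% higher and 12.6% lower in heart, 17% and 16.5% in kidney, and 12.2% and 11.4% in liver. By this main fit, members in heart and liver were called no more often than genes at large. The longest runs of library numbers alone gave 36 liver members with a difference, and the run as a covariate 22, in place of 12. Shares over all genes are not given for those fits, so the liver comparison holds for the main fit only. In heart the log2 difference, Dchs1 minus Fat4, was -0.30 for Ndufaf4, -0.24 for Ndufc2, -0.17 for Ndufa11, -0.12 for Sdhc and -0.13 for Ndufa8. In kidney it was -0.60 for Cycs, -0.26 for Sdhc, -0.29 for Ndufaf1, -0.28 for Ndufab1 and -0.25 for Uqcrc1. In liver it was 0.38 for Cycs, 0.43 for Ndufaf4, 0.26 for Ndufc2 and -0.20 for Ndufaf1.

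Within the Dchs1 line, the Het effect differed between kidney and liver in 54 of 74 members by the same test, against 17.2% higher and 18.9% lower over 14668 genes. The log2 difference, kidney minus liver, was -1.17 for Cycs, -0.41 for Ndufs1, -0.51 for Ndufc2, -0.40 for Ndufv2 and -0.44 for Ndufa8.

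A signal also appeared in a row outside the members: Ndufs5-ps, which is not annotated as protein-coding, had a median of 142 TPM over all libraries, while the row of the protein-coding Ndufs5 was near 0.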

How the results depend on the processing

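Of 999 alternatives for 101 single-gene results, 867 kept the direction and the side of the threshold, 132 kept the direction but missed the threshold, and 0 reversed. Most of the 101 were named because they were called in these same libraries, so a reversal on refitting was unlikely from the start. No paired analysis was possible because library numbers are not shared between groups. In Dchs1 heart, 10, 10 and 8 members were lower on TPM with a pseudocount of 0.1, of 1, and without a filter, in place of 16 on counts, and in Dchs1 kidney 30, 29 and 24, in place of 61. In Dchs1 liver, 18, 18 and 18 were higher on these TPM settings and 19 with library totals, in place of 29. In Dchs1 lung, 1, 1 and 1 were higher on TPM, 2 with library totals and 8 with the run of library numbers as a covariate, in place of 5. There, 4, 4 and 2 were lower on TPM, 5 on TPM without mitochondrial rows, 1 with library totals, 2 in the longest run, 1 with the covariate and 1 without the libraries that stood apart, in place of 0. In Fat4 kidney, 1 was higher on each TPM setting, on TPM without mitochondrial rows and with library totals, and 2 in the longest run, in place of 5. There, 5 were lower on TPM without mitochondrial rows, 0 on TPM without a filter, 2 in the longest run and 0 with the covariate, in place of 1. In Fat4 liver, 1, 1 and 0 were higher on TPM, and 1 on TPM rescaled by TMM factors or without mitochondrial rows, in place of 3. There, 2, 3 and 2 were lower on TPM, 1 and 4 on those rescaled values, 1 with DESeq2, 2 with library totals, 1 in the longest run, 1 without a count filter and 1 without the libraries that stood apart, in place of 0. Library totals gave 21 members with a difference between the lines in kidney, in place of 47. In liver the longest runs gave 36 and the covariate 22, in place of 12, and in lung DESeq2 gave 2, the longest runs 5 and the covariate 4, in place of 0. On TPM rescaled by TMM factors, 5 of 81 single-gene results missed the threshold, against 28 of 81 on plain TPM. These results were largely chosen for their calls on TMM-scaled counts. The causes of the changes between settings were not tested. Small changes lie near the SE of a member, and genes with few reads, such as Cox6b2, are the least precise.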

Other observations

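Beyond the respiratory chain, nuclear genes of the mitochondrial ribosome moved both ways in Dchs1 heart, where 11 of 78 were higher and 17 lower in Het, and in Dchs1 liver, where 19 were higher and 13 lower. Over all genes, 26.1% were higher and 24.1% lower in Dchs1 heart and 24.3% and 25.4% in Dchs1 liver, so these counts lay near or under the shares of all genes. Of the assembly factors of complexes III and IV, 17 of 33 were lower and 3 higher in Dchs1 heart, with Cox19, a copper-handling factor, at a log2 fold change of -0.36, and 8 were higher and 8 lower in Dchs1 liver. In Dchs1 lung, 5 of 18 genes of the tricarboxylic acid cycle were higher and 0 lower, with Dlst at 0.10, against 9.6% higher and 10.4% lower over all genes. Mrps18b, a protein of the small mitochondrial ribosomal subunit picked out after its values were seen, was higher in Het in 6 of the 8 comparisons by edgeR's adjusted test. Its log2 fold change was 0.22, 0.11 and 0.37 in Dchs1 heart, kidney and liver, and 0.14, 0.16 and 0.14 in Fat4 heart, kidney and liver.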
